A study of Oryza sativa Japonica Group with 12 samples.

Results

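The genes described here make gibberellin or carry its signal in rice leaves. They were chosen by name: a gene whose symbol or synonym starts with GA20ox, GA2ox or GA3ox and a digit, or equals GID1, GID2 or SLR1, with at most 10 genes kept. Of the genes in the name table, 6 matched, and 5 of them had a probe set, out of 17905 genes with a probe set of their own on the array. These 5 are GA20ox2, GA20ox3, GID1, SLR1 and the gene LOC4329775, called GF14E/GID2 below. They have 6 probe sets of the 57381 on the array, and the limit of 10 removed none. No GA2ox or GA3ox gene is among the matches, so the last activating step and the main route of breakdown were not analysed here.

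Gibberellins are plant hormones that drive the lengthening of stems and leaves. GA20-oxidases make the precursors of the active forms, GA3-oxidases activate them and GA2-oxidases inactivate them. The active hormone binds the receptor GID1, the loaded receptor grips the DELLA repressor SLR1, and the F-box protein GID2 passes SLR1 on for destruction, which frees growth genes. In rice, loss of GA20ox2 gives the semi-dwarf stature of the sd1 varieties, while loss of GID1 or GID2 gives dwarfs that do not respond to gibberellin.

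The study set rice (Oryza sativa) that over-expresses the microRNA miR156 against wild-type rice, in a young and an old leaf. miR156 represses SPL transcription factors and holds plants in the juvenile phase. The first group, OE_L6, is leaf 6, the young leaf, of miR156 over-expression plants. WT_L6 is the same leaf of wild-type plants. OE_L3 and WT_L3 are leaf 3, the old leaf, of over-expression and wild-type plants. Leaves were counted on the main tiller in the order they emerged, and each group has 3 arrays. The over-expression replicates 1, 2 and 3 are the transgenic lines Md15, Md43 and Mh9, so their spread is that between lines, and the wild-type replicates are the plants WT1, WT2 and WT3. The 6 plants named below are these 3 lines and 3 wild-type plants. The labels give both leaves of a replicate the same line or plant. For a line, they do not show that both leaves came from 1 plant. All plants were grown from sterilised seed, moved to hydroponics at 10 days and sampled at 45 days. The transgenic seedlings had been selected on 50 mM hygromycin, the labels record no such selection for wild type, and no transgenic line without miR156 is among the samples. Which promoter drives the transgene is not stated in the labels. The age of a leaf and its place on the tiller cannot be told apart in this design.

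Each array gave 1 signal per probe set, a brightness on a linear scale, with array medians between 50.8 and 56.5. Differences are given as log2 of (signal + 16), a scale that understates changes of dim probe sets, and were tested with limma over 34316 probe sets (two-sided, Benjamini-Hochberg adjustment, threshold 0.05). Fold values are also those of signal + 16, and lie nearer to 1 than folds of the signal itself. SPL4, a target of miR156, was read as a check of the labels. The probe set of SPL4 that was called in both leaves averaged 76.1 ± 5.51 in OE_L6 and 134 ± 8.47 in WT_L6 (SD, n = 3 each), and 45.8 ± 4.46 in OE_L3 and 86.4 ± 5.67 in WT_L3. The log2 differences were -0.70 (limma adjusted p = 0.00791) and -0.73 (limma adjusted p = 0.0068). Of the 3 tested probe sets of SPL4, 2 were called lower in OE in leaf 6 and 1 in leaf 3. The leaf 6 call of the first probe set was lost without OE_L6 replicate 1 (limma adjusted p = 0.0565) or without WT_L6 replicate 2 (limma adjusted p = 0.0564), and from the compared groups alone neither its leaf 6 nor its leaf 3 call held (limma adjusted p = 0.0641 and 0.196). The other leaf 6 call was lost with quantile normalization (limma adjusted p = 0.103), without any 1 of the leaf 6 arrays or without WT_L3 replicate 3 (limma adjusted p between 0.0504 and 0.116). It was also lost from the compared groups alone (limma adjusted p = 0.0719) and with 1 probe set kept per gene (0.0529).

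The old leaves were not uniform. On a score that is 0 at the mean L3 array and 1 at the mean L6 array of the other genotype, OE_L6 arrays lay between 0.878 and 1.02 and WT_L6 arrays between 0.915 and 1.11. OE_L3 arrays scored 0.254, 0.211 and -0.223, and WT_L3 arrays 0.382, -0.286 and -0.266. OE_L3 replicates 1 and 2 and WT_L3 replicate 1 thus stood nearer to leaf 6 than the other old leaves did. Genes of dividing cells set the same 3 arrays apart. The summed signal of 13 such genes was 4029, 5412 and 4019 in OE_L6 and 5535, 4836 and 2651 in WT_L6. It was 1977, 2427 and 618 in OE_L3, against 3477, 639 and 667 in WT_L3.

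In both genotypes the clearest gibberellin difference lay between the leaves, not between the genotypes, as it did over the whole array. Of all tested probe sets, 42.1% were called between the leaves in OE and 47.8% in WT. Between OE and WT, 0.102% were called in leaf 6 and 0.119% in leaf 3. GA20ox3 was lower in leaf 6 than in leaf 3 in OE and in WT, and GA20ox2 and the bright probe set of GID1 were called lower in leaf 6 of OE, while the dim probe set of GID1 went the other way. In WT neither of these was called, and the test of the difference between the genotypes called neither. No difference between OE and WT was called for any of the 5 genes, in either leaf.

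GA20ox3 encodes a GA20-oxidase, the enzyme family that builds gibberellin precursors. Its signal was 61.9, 80.6 and 71.6 in OE_L6, against 157, 125 and 114 in OE_L3, in replicate order. In wild type it was 81.3, 66.2 and 55.0 in WT_L6, against 149, 146 and 157 in WT_L3. Every leaf 6 array was below every leaf 3 array, and all 6 plants had the lower signal in leaf 6, with log2 differences of -1.28 to -0.54. Group means were 71.4 ± 9.39 in OE_L6, 67.5 ± 13.2 in WT_L6, 132 ± 22.5 in OE_L3 and 151 ± 5.55 in WT_L3 (SD, n = 3 each).

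In OE, GA20ox3 fell by 0.76 on the log2 scale in leaf 6 relative to leaf 3, 1.69-fold (95% confidence interval -1.06 to -0.45, limma adjusted p = 0.00229). In WT it fell by 1.01, 2.01-fold (95% confidence interval -1.31 to -0.70, limma adjusted p = 0.00045). With each plant as a block the adjusted p was 0.0183 in OE and 0.00766 in WT. In order of level, WT_L3 and OE_L3 came first and OE_L6 and WT_L6 last. The step between the old and the young leaves exceeded the spread of the arrays, while the neighbours WT_L3 and OE_L3 overlapped, as did OE_L6 and WT_L6. The plot of member signals shows this split of GA20ox3 into old and young leaves.

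**Figure D1:**
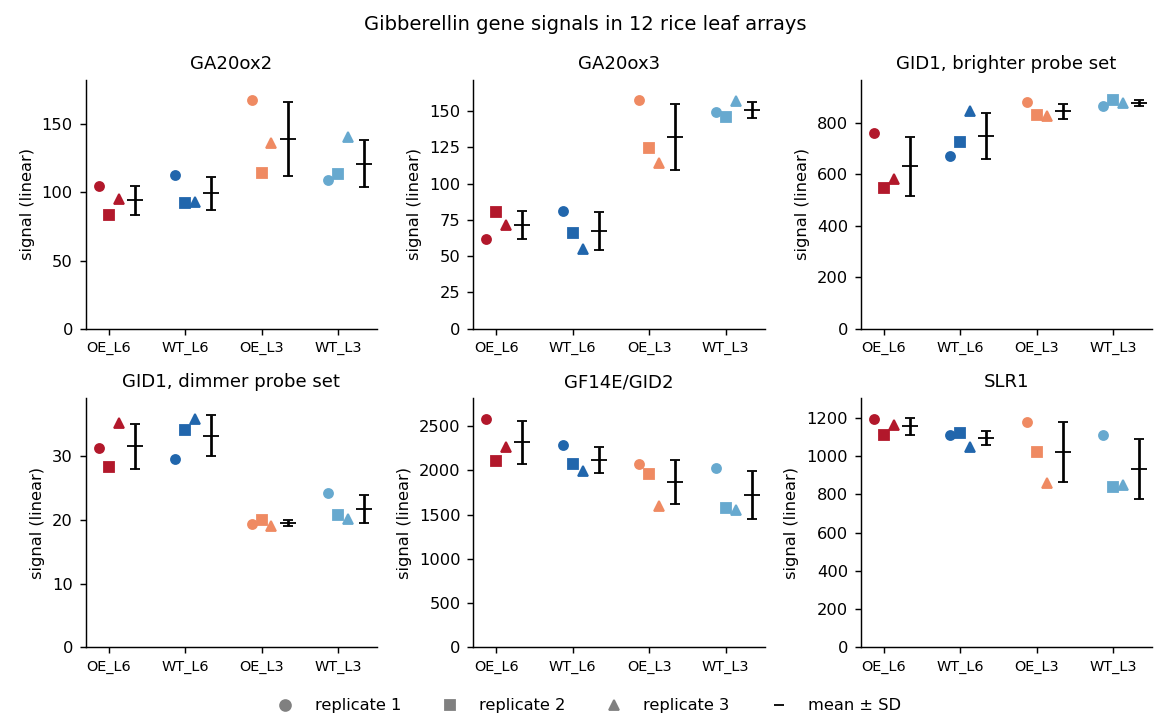
Linear array signal of each gibberellin probe set in the 12 arrays; marker shape gives the replicate, and the black bar beside each group its mean ± SD (n = 3). GA20ox3 lies at 55.0 to 81.3 in the 6 leaf 6 arrays and at 114 to 157 in the 6 leaf 3 arrays, while OE and WT overlap in every panel with a tested probe set.

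GA20ox2, the gene of the sd1 semi-dwarf varieties, showed the same leaf order in OE with a smaller difference. Its signal was 105, 83.4 and 94.96 in OE_L6, against 168, 114 and 136 in OE_L3. In WT_L6 it was 113, 92.1 and 92.7, against 109, 113 and 141 in WT_L3. The OE leaves did not overlap. The WT leaves did, because leaf 6 of WT replicate 1 was as bright as leaf 3 of replicates 1 and 2. Of the 6 plants, 5 had the lower signal in leaf 6, and WT replicate 1 differed by 0.04 the other way.

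GA20ox2 averaged 94.3 ± 10.6 in OE_L6 and 139 ± 26.9 in OE_L3 (SD, n = 3 each), and fell by 0.48 on the log2 scale, 1.40-fold (95% confidence interval -0.80 to -0.17, limma adjusted p = 0.0221). In WT it averaged 99.3 ± 11.8 in WT_L6 and 121 ± 17.0 in WT_L3, a log2 difference of -0.25 that was not called (95% confidence interval -0.56 to 0.07, limma adjusted p = 0.173). The OE call did not survive the loss of OE_L3 replicate 1, OE_L3 replicate 3, OE_L6 replicate 2 or OE_L6 replicate 3, with limma adjusted p-values of 0.0702, 0.0567, 0.0784 and 0.0504. From the brightest group to the dimmest the order was OE_L3, WT_L3, WT_L6 and OE_L6, and each neighbouring pair overlapped.

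GID1, the gibberellin receptor, has a bright and a dim probe set. The bright one read 760.2, 548 and 582 in OE_L6, against 879, 831 and 825 in OE_L3. In WT_L6 it read 672, 723 and 845, against 865, 887 and 877 in WT_L3. Neither genotype's leaves overlapped, and leaf 6 was lower in all 6 plants, with log2 differences of -0.59 to -0.05.

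The means of the bright probe set were 630.1 ± 114 in OE_L6 and 845 ± 29.7 in OE_L3 (SD, n = 3 each). GID1 fell by 0.43 on the log2 scale in OE leaf 6, 1.34-fold (95% confidence interval -0.70 to -0.16, limma adjusted p = 0.0195). In WT the means were 747 ± 89.0 in WT_L6 and 876 ± 11.3 in WT_L3, with a log2 difference of -0.23 that was not called (95% confidence interval -0.50 to 0.04, limma adjusted p = 0.139). The OE call was lost without OE_L3 replicate 1, OE_L6 replicate 2 or OE_L6 replicate 3, at limma adjusted p-values of 0.0536, 0.0706 and 0.0626. The order was WT_L3, OE_L3, WT_L6 and OE_L6, and each neighbouring pair overlapped.

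The dim GID1 probe set went the other way. It read 31.2, 28.2 and 35.2 in OE_L6, against 19.3, 20.0 and 19.1 in OE_L3. In WT_L6 it read 29.6, 34.1 and 35.9, against 24.2, 20.8 and 20.2 in WT_L3. Its mean lay below the lower limit for testing, set at the 40th percentile of all probe sets. Tested without that limit, it was higher in leaf 6 by 0.42 in OE (limma adjusted p = 0.00191) and by 0.38 in WT (limma adjusted p = 0.00276) on the log2 scale. Leaf 6 was higher in all 6 plants by this probe set and lower in all 6 by the bright one, so the leaf direction of GID1 depends on which probe set is read. The name table does not say which part of the transcript each reads.

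GF14E/GID2 is LOC4329775, to which the name table gives both GF14E, the name of a 14-3-3 protein, and GID2. A further gene named GID2, LOC112937812, lies wholly within its interval and has no listed probe set, so which of the transcripts the probe set reads cannot be told apart. The signal was 2582, 2109 and 2262 in OE_L6, against 2065, 1957 and 1593 in OE_L3. In WT_L6 it was 2286, 2069 and 1997, against 2028, 1574 and 1551 in WT_L3. Leaf 6 was brighter in all 6 plants, by 0.11 to 0.50 on the log2 scale, and the groups overlapped in WT but not in OE.

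Mean GF14E/GID2 signal was 2318 ± 241 in OE_L6 and 1872 ± 247 in OE_L3 (SD, n = 3 each), a log2 difference of 0.31 (95% confidence interval 0.02 to 0.60, limma adjusted p = 0.0819). In WT it was 2118 ± 151 in WT_L6 and 1718 ± 269 in WT_L3, a log2 difference of 0.31 (95% confidence interval 0.01 to 0.60, limma adjusted p = 0.0772). Neither was called, and both were under quantile normalization, with 0.37 in OE (limma adjusted p = 0.0197) and 0.36 in WT (limma adjusted p = 0.0192). Without WT_L3 replicate 1 the WT difference was 0.43 (limma adjusted p = 0.0151) and the adjusted p in OE was 0.0438. OE_L6 had the highest mean, followed by WT_L6, OE_L3 and WT_L3, and each neighbouring pair overlapped.

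SLR1 is the DELLA protein that holds growth back until gibberellin removes it. Its signal was 1195, 1108 and 1165 in OE_L6, against 1179, 1023 and 861 in OE_L3. In WT_L6 it was 1112, 1119 and 1049.8, against 1112, 838 and 848 in WT_L3. The young leaves lay close together, while the old leaves were spread, with OE_L3 replicate 1 and WT_L3 replicate 1 at the level of leaf 6. Leaf 6 was not below leaf 3 in any of the 6 plants, at 0.00 to 0.43 on the log2 scale.

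SLR1 averaged 1156 ± 44.2 in OE_L6 and 1021 ± 159 in OE_L3 (SD, n = 3 each), with a log2 difference of 0.19 (95% confidence interval -0.10 to 0.48, limma adjusted p = 0.262). It averaged 1094 ± 38.2 in WT_L6 and 932 ± 155 in WT_L3, with a log2 difference of 0.24 (95% confidence interval -0.05 to 0.53, limma adjusted p = 0.152). Neither passed the test. Without WT_L3 replicate 1 the WT difference was 0.37 and was called (limma adjusted p = 0.0233). The order was OE_L6, WT_L6, OE_L3 and WT_L3, and each neighbouring pair overlapped.

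SLR1 and GF14E/GID2 split the old leaves into the same 3 lower and 3 higher arrays as the dividing-cell genes. Both were lower in OE_L3 replicate 3 and WT_L3 replicates 2 and 3, the arrays whose summed dividing-cell signal was 618, 639 and 667, than in the 3 other old leaves, where that sum was 1977 to 3477. GA20ox3 read 149, 146 and 157 in WT_L3 at sums of 3477, 639 and 667, with no such split. In OE_L3 it read 157, 125 and 114 at sums of 1977, 2427 and 618, and the array with the low sum was the lowest, as for SLR1 and GF14E/GID2. Within the 3 old leaves with the higher sums, SLR1 and GF14E/GID2 did not rise with the sum. At sums of 1977, 2427 and 3477, SLR1 read 1179, 1023 and 1112, and GF14E/GID2 2065, 1957 and 2028. The leaf score set the same 3 arrays apart. The part of dividing cells in these signals was not tested. In whole leaves, fewer cells of a type and less RNA per cell cannot be told apart.

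**Figure D2:**
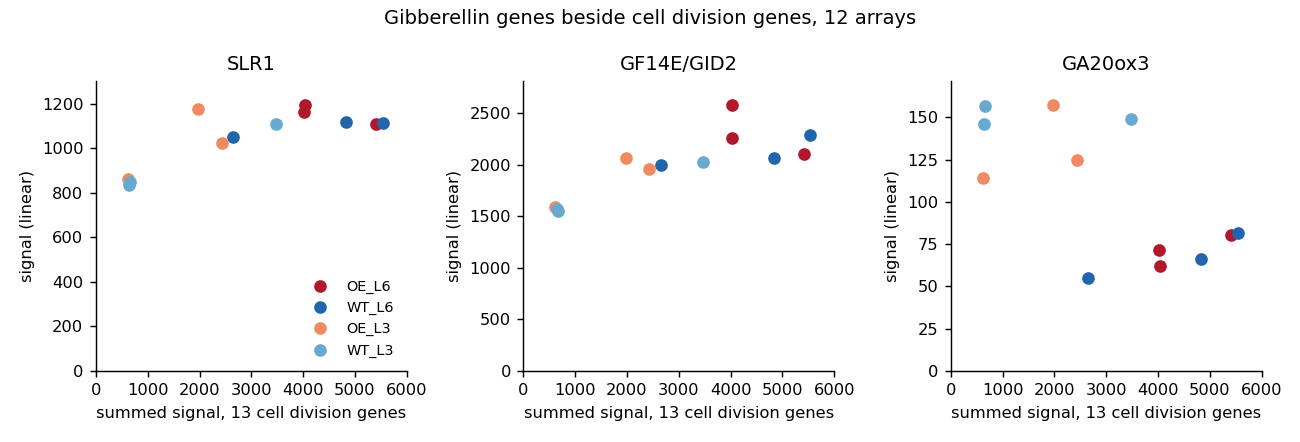
Signal of SLR1, GF14E/GID2 and GA20ox3 (vertical axes, linear) against the summed signal of 13 cell division genes (horizontal axes, linear) on the 12 arrays, coloured by group. The 3 arrays with sums of 618 to 667 have the lowest signals of SLR1 and GF14E/GID2, and GA20ox3 stays at 114 or above in all leaf 3 arrays whatever their sum.

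Over the 5 genes, with GID1 read by its bright probe set, 3 were called lower and 0 higher in OE leaf 6 against OE leaf 3, where 42.1% of all tested probe sets were called, 23.2% as lower and 18.9% as higher. In WT, 1 was called lower and 0 higher, where 47.8% of tested probe sets were called, 23.9% as lower and 23.9% as higher. The groups did not overlap for 4 of 5 genes in OE, against 59.4% of tested probe sets, and for 2 of 5 in WT, against 54.7%. The median log2 difference of the 5 genes was -0.43 in OE and -0.23 in WT, and over all tested probe sets it was 0.00 and 0.02. With so large a share of the array differing between the leaves, these counts do not set the gibberellin genes apart. Read by its dim probe set without the filter, GID1 would count as higher in both genotypes.

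Whether miR156 over-expression changed these genes was asked in each leaf separately. In leaf 6, limma called 0 of the 5 genes, where 0.102% of tested probe sets were called. Of the 5, 0 had an unadjusted p under 0.05, which 7.72% of tested probe sets had. In leaf 3 it again called 0 of 5, where 0.119% of tested probe sets were called. Again 0 had an unadjusted p under 0.05, which 3.86% of tested probe sets had. OE and WT arrays overlapped for all 5 genes in both leaves, while the groups did not overlap for 15.2% of tested probe sets in leaf 6 and for 8.54% in leaf 3.

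In leaf 6 the lowest unadjusted p among the 5 genes was that of GID1, whose log2 difference between OE and WT was -0.25 (95% confidence interval -0.52 to 0.02, limma adjusted p = 0.67). The 95% confidence intervals bound the other differences in leaf 6 as follows. GA20ox3 differed by 0.07 (-0.23 to 0.38) and GA20ox2 by -0.06 (-0.38 to 0.25). GF14E/GID2 differed by 0.13 (-0.17 to 0.42) and SLR1 by 0.08 (-0.21 to 0.37). A change of either GA20-oxidase beyond 0.38 in either direction on the log2 scale therefore lay outside the intervals in the young leaf.

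In leaf 3 the log2 differences between OE and WT were -0.18 for GA20ox3 (95% confidence interval -0.49 to 0.13) and 0.17 for GA20ox2 (-0.14 to 0.49). GID1 differed by -0.05 (-0.32 to 0.22), GF14E/GID2 by 0.13 (-0.17 to 0.42) and SLR1 by 0.13 (-0.16 to 0.42). The limma adjusted p was 0.9999 for each of the 5. All these intervals rest on 1 spread per probe set, shared by the 4 groups. Averaged over tested probe sets, the within-group variance was 0.115 in OE_L3 and 0.169 in WT_L3, against 0.047 in OE_L6 and 0.042 in WT_L6. By that average, intervals between OE and WT may be too narrow in leaf 3 and too wide in leaf 6. GA20ox2, GF14E/GID2 and SLR1 also varied more in leaf 3. GID1 went the other way. Its SD was 3.51% of the mean in OE_L3 and 1.29% in WT_L3, against 18.1% in OE_L6 and 11.9% in WT_L6. For GID1 the interval may thus be too narrow in leaf 6. GA20ox3 varied more in leaf 6 in WT (19.6% against 3.68%) but not in OE (13.2% against 17.0%). The median over the 5 genes was 0.07 in leaf 6 and 0.13 in leaf 3, and over all tested probe sets it was -0.02 and 0.01.

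The difference between the leaf changes of OE and WT was tested as an interaction, which asks whether miR156 altered the contrast between young and old leaves. None of the 5 genes was called by limma, while 0.00874% of tested probe sets were called, and 0 had an unadjusted p under 0.05, against 2.46% of tested probe sets. GA20ox3 fell less in OE than in WT by 0.25 on the log2 scale (95% confidence interval -0.18 to 0.68), and GA20ox2 differed by -0.23 (-0.68 to 0.21). GID1 differed by -0.20 (-0.58 to 0.19), SLR1 by -0.05 (-0.46 to 0.36) and GF14E/GID2 by 0.00 (-0.41 to 0.42). The limma adjusted p was 0.9996 for each, so the leaf calls of GID1 and GA20ox2 in OE and their absence in WT were not shown to differ between the genotypes.

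**Figure D3:**
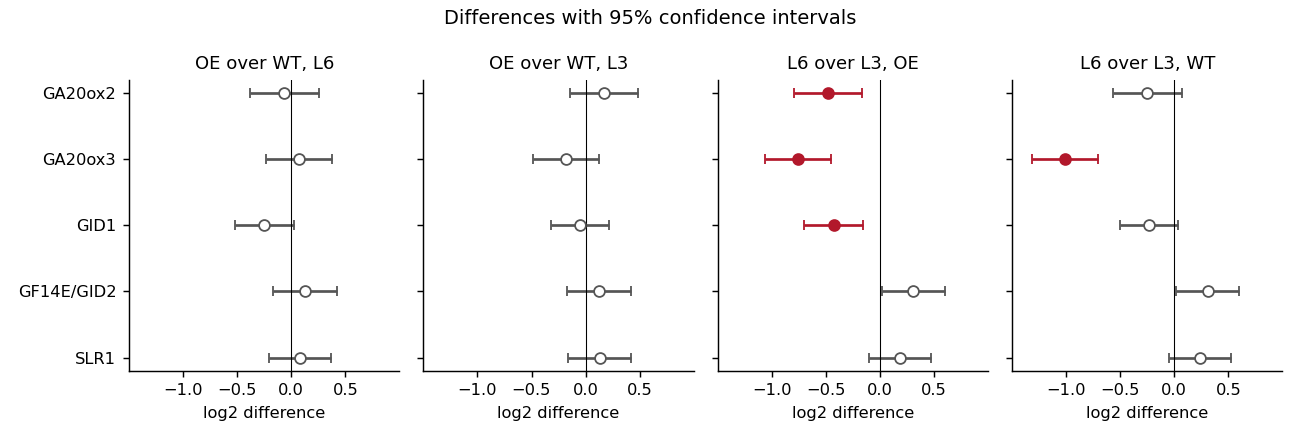
Log2 difference of each gene (points) with its 95% confidence interval (bars) in the 4 comparisons; GID1 is its bright probe set, and filled points passed an adjusted p of 0.05. All intervals of OE over WT cross 0, and the filled points are GA20ox3, GID1 and GA20ox2 in OE leaf 6 over leaf 3 and GA20ox3 in WT.

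Genes that act before the GA20-oxidases differed between the leaves in both directions. Of 5 early synthesis genes with a probe set, all tested, 3 were called higher and 1 lower in OE leaf 6, and 2 higher and 1 lower in WT leaf 6. Of all tested probe sets, 18.9% were called higher and 23.2% lower in OE, and 23.9% each way in WT. The median log2 difference of the 5 genes was 0.44 in OE and 0.41 in WT. CPS1, the cyclase that makes the first committed intermediate, read 95.1, 142 and 103 in OE_L6, against 44.3, 51.5 and 37.8 in OE_L3. In WT_L6 it read 107, 105 and 107, against 53.6, 35.1 and 55.6 in WT_L3. The leaves did not overlap in either genotype, and CPS1 was higher in leaf 6 by 1.08 in OE (limma adjusted p = 0.000702) and by 0.95 in WT (limma adjusted p = 0.00126) on the log2 scale.

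KS1, the kaurene synthase of the next step, was higher in leaf 6 by 0.44 in OE (limma adjusted p = 0.00463) and by 0.41 in WT (limma adjusted p = 0.00558), by a probe set that may also read related genes. D35, the ent-kaurene oxidase, fell by 0.95 in OE (limma adjusted p = 0.000732) and by 0.69 in WT (limma adjusted p = 0.00338). D35 was read by the brighter of its 2 probe sets, and the values of the other were not examined. Its signal was 130.3, 129 and 142 in OE_L6 and 320.1, 242 and 262 in OE_L3. In WT_L6 it was 109, 104 and 122, against 151, 218 and 206 in WT_L3. Every leaf 6 array was below every leaf 3 array, but the probe set is of the type that can read similar sequences, so the share of related oxidases in it is uncertain.

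KAO, the ent-kaurenoic acid oxidase, was higher in OE leaf 6 by 0.56 (limma adjusted p = 0.0403), but not with each line as a block (limma adjusted p = 0.0643). In WT its log2 difference was 0.13 (limma adjusted p = 0.599). KAO's call in OE was also lost without OE_L3 replicate 1 (adjusted p = 0.0812 by limma), OE_L3 replicate 3 (0.131), OE_L6 replicate 1 (0.0758), OE_L6 replicate 2 (0.136) or WT_L6 replicate 2 (0.0538). It was lost without the filter as well (limma adjusted p = 0.05055). KO1, a further gene of the ent-kaurene oxidase family, was not called, with log2 differences of -0.04 in OE and 1.098 in WT (limma adjusted p = 0.955 and 0.0632). The WT difference of KO1 passed with each plant as a fixed block (limma adjusted p = 0.0437), which made 4 early synthesis calls in WT, but not as a random one (0.0811). It also passed from the compared groups alone (0.037) and without OE_L6 replicate 2 (0.0198).

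Of 7 other signalling and response genes, 4 were called higher and 1 lower in leaf 6, in OE and again in WT. Of all tested probe sets, 42.1% were called in OE and 47.8% in WT. The median log2 difference of the 7 genes was 0.51 in OE and 0.60 in WT. SLRL1, a relative of SLR1, was higher by 0.48 in OE (limma adjusted p = 0.0064) and 0.60 in WT (limma adjusted p = 0.00188). It averaged 86.1 ± 7.78 in OE_L6 and 57.0 ± 5.40 in OE_L3, and 96.2 ± 3.13 in WT_L6 and 58.6 ± 11.5 in WT_L3 (SD, n = 3 each). D1, the alpha subunit of the G protein that takes part in gibberellin responses, was higher by 0.51 in OE (limma adjusted p = 0.0114) and 0.47 in WT (limma adjusted p = 0.0153). D1's call in WT was lost without WT_L3 replicate 2 (0.0652), WT_L3 replicate 3 (0.0625) or WT_L6 replicate 3 (0.0533). It was also lost from the compared groups alone (limma adjusted p = 0.0514).

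YAB1, a YABBY transcription factor, and GDD1, a kinesin-like protein whose loss makes rice a gibberellin-deficient dwarf, were also called higher in leaf 6. YAB1 differed by 1.65 in OE (limma adjusted p = 0.0433) and 1.93 in WT (limma adjusted p = 0.0211). It was read by the brighter of its 2 probe sets, which may also read related genes, and the other was not examined. GDD1 differed by 1.17 in OE (limma adjusted p = 0.0433) and 1.37 in WT (limma adjusted p = 0.0207). Both were uneven among the old leaves: YAB1 read 299, 254 and 48.5 in OE_L3 and 351, 90.9 and 103 in WT_L3, and GDD1 read 541, 481 and 228 in OE_L3 and 704, 220.0 and 224 in WT_L3. Without OE_L3 replicate 3 the OE difference was 0.93 for YAB1 (limma adjusted p = 0.134) and 0.80 for GDD1 (limma adjusted p = 0.161). Both OE calls were also lost without any 1 of the leaf 6 arrays of either genotype, that of YAB1 without WT_L3 replicate 3 and that of GDD1 without OE_L3 replicate 2. The OE call of YAB1 was lost from the compared groups alone (limma adjusted p = 0.0651) and with a pseudocount of 1 (0.0502) as well. That of GDD1 was lost without the filter (limma adjusted p = 0.0505). Both WT calls were lost when replicate 2 or replicate 3 of either WT leaf was left out, at limma adjusted p-values of 0.0555 to 0.085. The WT call of GDD1 was also lost from the compared groups alone (limma adjusted p = 0.0508). The low arrays in leaf 3 are again those with the low sums of dividing-cell genes, whose part in these differences was not tested.

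GAMYB, a MYB factor of gibberellin responses, was called lower in leaf 6, with log2 differences of -0.26 in OE (limma adjusted p = 0.0404) and -0.33 in WT (limma adjusted p = 0.0142), by a probe set that can read similar sequences. Its OE call was lost with quantile normalization (limma adjusted p = 0.0781), without the filter (0.0579) or from the compared groups alone (0.0821). That call was also lost without OE_L3 replicate 2 or 3, any 1 OE_L6 replicate, WT_L3 replicate 3 or WT_L6 replicate 2 (limma adjusted p = 0.0506 to 0.154). The WT call of GAMYB was lost without WT_L3 replicate 3 (limma adjusted p = 0.054). With each plant as a block, the calls among these 7 genes in OE dropped to 2, and GAMYB, YAB1 and GDD1 no longer passed (limma adjusted p = 0.0701, 0.0589 and 0.0601). In WT the fixed block gave 6 calls, with GRF1 added (limma adjusted p = 0.0238), and the random block 5. Leaving out single arrays gave 2 to 5 calls in OE and 1 to 6 in WT. The fewest in WT came without WT_L3 replicate 3, and 2 were called without WT_L3 replicate 2. In OE the count was 2 without OE_L3 replicate 3, without any 1 of the OE_L6 replicates or without WT_L6 replicate 2. SPY, a sugar transferase that restrains gibberellin signalling, and GRF1, a growth-regulating factor, were not called, with log2 differences of 0.17 and 1.37 in OE and 0.21 and 1.80 in WT. GRF1 also passed in WT without OE_L3 replicate 3, WT_L3 replicate 1 or WT_L6 replicate 3 (limma adjusted p = 0.0373, 0.0233 and 0.013).

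**Figure D4:**
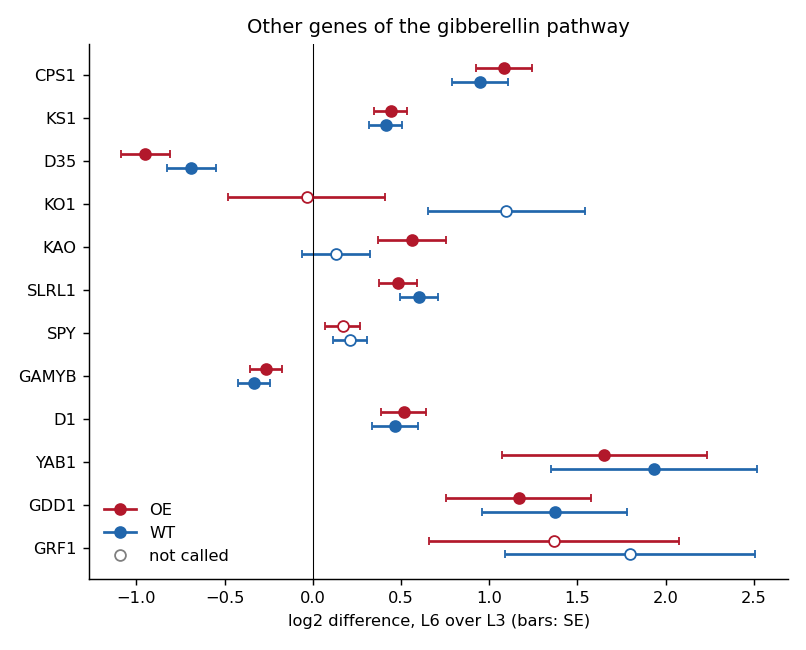
Log2 difference of leaf 6 over leaf 3 (points) with its SE (bars) for the other gibberellin pathway genes in OE and WT; filled points passed an adjusted p of 0.05. Of the genes called in both genotypes, CPS1, KS1, SLRL1, D1, YAB1 and GDD1 lie above 0 and D35 and GAMYB below 0. KAO, SPY and GRF1 also lie above 0 in both genotypes, and KO1 does so in WT alone.

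Between OE and WT, limma called 0 of the 5 early synthesis genes and 0 of the 7 other signalling genes in leaf 6, and 0 of either list in leaf 3. Of all tested probe sets, 0.102% were called in leaf 6 and 0.119% in leaf 3. The median log2 difference of early synthesis genes was 0.06 in leaf 6 and 0.05 in leaf 3, and that of the other signalling genes 0.04 and 0.18. D35 was 0.49 higher in OE in leaf 3 at an unadjusted p of 0.00517 (limma adjusted p = 0.755). In leaf 6, KAO was 0.48 higher at an unadjusted p of 0.0314 and GAMYB 0.26 higher at an unadjusted p of 0.0155 (limma adjusted p = 0.627 and 0.592). Of all tested probe sets, 3.86% in leaf 3 and 7.72% in leaf 6 had an unadjusted p under 0.05. None of the 12 genes passed the interaction test, which called 0.00874% of tested probe sets. CYP714D1, the EUI1 enzyme that inactivates gibberellins, was too dim to test, with signals of 31.8 to 41.8 over the 12 arrays.

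Some markers of other leaf states differed between the leaves too. The counts below stand against the shares of all tested probe sets. In OE leaf 6, 18.9% were called higher and 23.2% lower, and in WT leaf 6 23.9% each way. Of 11 tested dividing-cell genes, 2 were called higher in OE leaf 6 and 8 in WT leaf 6, against 18.9% and 23.9% of all tested probe sets. The share in OE is near that of all probe sets. The median log2 differences of the 11 genes were 1.66 and 1.80. The summed signal of 5 leaf senescence genes was 2601 to 3651 in OE_L6 and 2625 to 3406 in WT_L6, against 4160 to 4827 in OE_L3 and 3850 to 4757 in WT_L3. Of the 4 tested, SGR and RCCR1 were called lower in leaf 6 in both genotypes, NYC1 in neither, and NOL had log2 differences of 0.37 in OE (limma adjusted p = 0.07) and 0.43 in WT (limma adjusted p = 0.0409). Photosynthesis genes, 4 in number and the mark of green leaf tissue, summed to 21806 to 25745 in OE_L6 and 22792 to 24699 in WT_L6, against 19793 to 23906 in OE_L3 and 20632 to 23216 in WT_L3. Of the 3 tested, RCA was called higher in leaf 6 by 0.58 in OE (limma adjusted p = 0.00416) and 0.57 in WT (limma adjusted p = 0.00388). RBCS was called higher by 0.36 in OE (limma adjusted p = 0.0137) and 0.37 in WT (limma adjusted p = 0.0108). CAB2R went the other way, by -0.49 in OE and -0.47 in WT, and was not called. The sum over 9 KNOX genes was 5252 to 6393 in OE_L6 and 5732 to 6536 in WT_L6, against 7986 to 8302 in OE_L3 and 7557 to 8377 in WT_L3. That sum is mostly HOS59, at 3046 ± 556 in OE_L6 and 5233 ± 228 in OE_L3, and 3088 ± 541 in WT_L6 and 5129 ± 480.1 in WT_L3 (SD, n = 3 each). Of 6 tested KNOX genes, 1 was called higher and 2 lower in OE leaf 6, and 2 higher and 3 lower in WT leaf 6. Of all tested probe sets, 42.1% were called in OE and 47.8% in WT. HOS59 and OSH45 were lower in both genotypes and HOS58 in WT. OSH43 was higher by 0.43 in OE (limma adjusted p = 0.00218) and 0.53 in WT (limma adjusted p = 0.000696), and HOS66 by 3.65 in WT (limma adjusted p = 0.0234). In OE, HOS66 differed by 2.17 and was not called (limma adjusted p = 0.142). It was uneven among the old leaves, at 343, 303 and 15.1 in OE_L3 and 466, 13.8 and 11.0 in WT_L3. OSH3 was not called, and OSH1, OSH6 and OSH71 were below the limit for testing. Both root genes were below it as well, and no marker gene was at 0. None of these lists had a called gene between OE and WT, where 0.102% of tested probe sets were called in leaf 6 and 0.119% in leaf 3. Their part in the leaf differences of the gibberellin genes was not tested.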

How the data were processed

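Biotin-labelled RNA of rice leaves was read on Affymetrix arrays, per the labels' protocols. Each deposited value is a probe set's linear signal intensity on 1 array. How the authors summarized and scaled it is not stated in the labels. No further normalization was applied. The number of arrays limits the precision.

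Intensities were taken as log2(signal + 16). Left out were 187 array controls and the probe sets whose mean was below the 40th percentile (a signal of about 40.9). One limma 3.58.1 model (R 4.3.3; lmFit and eBayes with a trend) held the 4 groups, with 5 contrasts. Names were joined and figures drawn with pandas 2.3.3 and matplotlib 3.10.9 (Python 3.11.15). The model was tested on simulated data. Names came from the platform annotation, updated through NCBI's gene table of assembly ASM3414082v1, used for names and overlaps alone: 22436 probe sets had 1 gene, 95 several, and 34850 were not listed.

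Members and lists were chosen with earlier results of these data known. Each gene of the pathway and marker lists was read by its brightest probe set alone. All members are named, with up to 4 called genes per pathway list and comparison in order of the strength of their statistic, SPL4, and the genes most like the brightest member. KAO, KO1, GAMYB, GDD1, SPY, GRF1 and marker genes, where they fall outside that rule, were named after their values were seen.

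The labels give leaves 3 and 6 the same line or plant. Their deviations from the group means correlated at 0.10, 0.14 and 0.20 in OE and at -0.24, -0.36 and -0.05 in WT. Alternatives covered normalization, pseudocount, filter, spread, block, fold minimum, probe sets per gene and leaving out each array.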

Additional observations from a re-analysis of the deposited data

How the results depend on the processing

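The GA20ox3 leaf calls held under every alternative, except in OE when at least 2-fold was also required; the highest limma adjusted p was 0.0183 in OE and 0.00766 in WT. The block changed no other call of the 5 genes. Members called in WT leaves, 1 in the main analysis, were 2 with quantile normalization, 2 without the filter and 1 to 3 when single arrays were left out, the 3 without WT_L3 replicate 1. In OE leaves, 3 became 0 with the 2-fold minimum and 1 to 4 with single arrays out, the 1 without OE_L3 replicate 1, OE_L6 replicate 2 or OE_L6 replicate 3. With single arrays out, the OE minus WT difference in leaf 6 ran from -0.039 to 0.19 for GA20ox3 and from -0.13 to 0.021 for GA20ox2. The interaction ran from -0.18 to 0.057 for SLR1 and from -0.12 to 0.076 for GF14E/GID2, the leaf difference from -0.35 to 0.49 for KO1 in OE and from -0.021 to 0.31 for KAO in WT. KO1 in OE was 0.011 with a pseudocount of 64.

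Over the whole table, OE against WT in leaf 3 called 41 probe sets, and 62 without the filter, 25 at the 60th percentile, 12 from the compared groups alone, 23 with the 2-fold minimum, 7 with 1 probe set per gene and 22 to 48 with single arrays out (25 without OE_L3 replicate 1, 22 without OE_L3 replicate 2 or WT_L3 replicate 2). In leaf 6 it called 35, and 22 at the 60th percentile, 3 with 1 probe set per gene and 20 to 45 with single arrays out (20, 21 and 22 without OE_L6 replicate 1, WT_L6 replicate 2 and WT_L6 replicate 3). WT leaves gave 16403 calls, 4944 with the 2-fold minimum, 9190 with 1 probe set per gene and 10305 to 18399 with single arrays out (10665 and 10305 without WT_L3 replicates 2 and 3). OE leaves gave 14445, 3783, 8194 and 8902 to 16435 (8902 without OE_L3 replicate 3). The interaction called 3, and 0 with a pseudocount of 1, 6 with 64 and 7 without the filter. It called 0 with each line or plant as a fixed block, 1 with it as a random one and 1 with 1 probe set per gene. With single arrays out it called 0 to 7. These were 0 without OE_L3 replicate 2, OE_L6 replicate 1 or any WT_L6 replicate, 1 without WT_L3 replicate 2 or 3, and 7 without OE_L3 replicate 3. Except for lower limits and probe set choices, which change the number tested, the cause was not tested.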

Other observations

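Among genes with a name other than a LOC number, those whose log2 signal was most like that of GF14E/GID2 over the 12 arrays were MHZ4 (Pearson r = 0.964), FBA1 (0.934) and KIN7J, a kinesin (0.919). The arrays share the split between leaves, and these values describe likeness alone.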
